A study of Mus musculus with 4 samples.

Results

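The genes described here encode the stimulatory and inhibitory G alpha subunits and the adenylyl cyclases, the proteins that lie between the calcitonin receptor and its second messenger cAMP. They are Gnas (G alpha s), Gnai1, Gnai2 and Gnai3 (G alpha i), and Adcy3, Adcy4, Adcy6, Adcy7 and Adcy9 (adenylyl cyclases). The members were taken by gene symbol: every probe set whose platform annotation held 1 of these 9 symbols and no other was included, whatever its signal. This gave 9 of the 18193 genes named on the array and 25 of its 45101 probe sets, and 0 probe sets with several symbols named a member. RNA came from muscle satellite cells, the stem cells of skeletal muscle, sorted as YFP-positive cells from 10-week-old mice 2 weeks after tamoxifen and not cultured. Control mice were Pax7-CreERT2, Calcr+/+ and Rosa-YFP, and conditional knockout (cKO) mice were Pax7-CreERT2, Calcr flox/flox and Rosa-YFP. Both groups thus carried the tamoxifen-dependent Cre at Pax7, were given tamoxifen and were sorted on the reporter, so that they differed in the Calcr allele. Each group had 2 samples called biological replicates in the titles, with 1 array each, and the sources used here do not say how many mice went into a sample.

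As background, Gs-coupled receptors such as the calcitonin receptor load G alpha s with GTP, and this subunit switches on adenylyl cyclases in the plasma membrane, which turn ATP into cAMP. Subunits of the Gi class inhibit a part of the same cyclases, and the beta-gamma dimers released with them stimulate others. The calcitonin receptor is known as a surface protein of quiescent satellite cells that helps to keep them out of the cell cycle.

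The comparison asks whether cells from the Calcr cKO mice carry different levels of the transcripts that would pass on the signal of the receptor. Values are MAS5 signals, the linear brightness of a probe set, and their array medians ran from 57.9 to 70.4. With 2 arrays a group, the number of arrays limits the precision, and an exact permutation test of 2 against 2 cannot give a 2-sided p below 0.333. All 12 satellite cell markers examined, Pax7 and Myf5 among them, passed the filter on dim probe sets (a mean signal of about 64.0 over the 4 arrays, the median of all probe sets). Their summed signal was 25094 and 34688 in control and 25666 and 28020 in cKO. Markers of some other cell types differed more between the libraries. Fibro-adipogenic markers summed to 15444.5 and 18252 in control and to 15616 and 16485 in cKO. Muscle fibre markers summed to 5122 and 2798 in control and to 2815 and 3787 in cKO. Endothelial markers (15 of 16 passed the filter) summed to 11046 and 1359 in control and to 10097 and 1536 in cKO, replicate 1 first. Leukocyte markers (7 of 18 passed) summed to 2652 and 3894 in control and to 2815 and 708 in cKO. No marker of either list was listed at 0, and the leukocyte markers Ptprc, Cd3e, Itgam, Adgre1 and Cd52 lay below the filter signal on every array. In sorted bulk RNA, fewer cells of a type and less RNA per cell cannot be told apart.

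Calcr itself, the Gs-coupled receptor that was targeted, had 1 probe set. It read 1268 and 1424 in control and 568 and 684 in cKO, a 2.15-fold lower mean on the log2 scale (log2 difference -1.11, SE 0.25). The groups did not overlap. The unadjusted limma p was 0.00292 and the adjusted limma p over all probe sets was 0.99999, so the gene did not pass; the adjusted limma p was 0.99999 for each member probe set tested as well. The sources used here do not place this probe set inside or outside the floxed part of the gene.

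No member passed the test. Of 25 member probe sets, 21 passed the filter, and 0 of these had an adjusted limma p under 0.05, against 0% of all 22505 probe sets tested. At an unadjusted p under 0.05 there were also 0 members, where 0.720% of all probe sets tested (162) lay under that value. Taking the brightest probe set of each gene that passed the filter, 2 of 9 members had a higher mean log2 value in cKO and 7 a lower one, with a median log2 difference of -0.12 against -0.043 over all 10134 genes. On the linear scale Adcy4 turns, with a mean signal of 213 in control and 222 in cKO. The split on the log2 scale became 3 and 6 after quantile normalization and 4 and 5 with arrays centred on their median. These scalings also moved the median over all genes, from -0.043 to 0.017 and 0.050. The 9 differences ran from -0.42 (Adcy7) to 0.15 (Adcy6). In 0 of 9 genes did both cKO arrays lie above or both below the control arrays, while this held for 20.6% of all genes tested. Over the 21 probe sets, 1 was higher and 2 were lower without overlap, where 7.87% and 13.5% of all tested probe sets were. The precision differs greatly between members: the 95% limma interval of the log2 difference extended 0.33 to each side for Gnas and 2.09 for Adcy4.

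**Figure D1:**
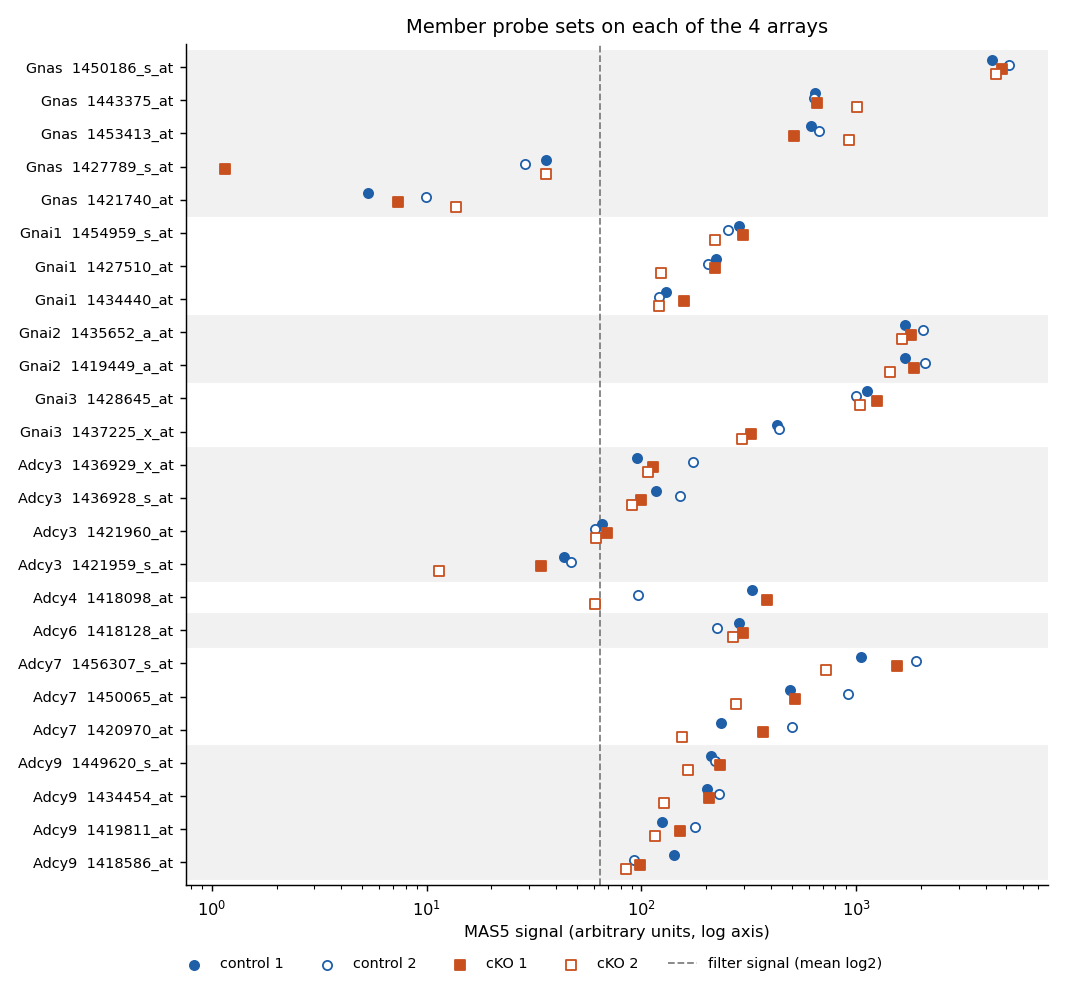
MAS5 signal (log axis) of the 25 member probe sets on each array: control arrays as circles, cKO arrays as squares, replicate 1 filled and replicate 2 open. The dashed line is the filter signal of 64.0. Adcy4 splits by replicate, not by group, with 329 and 384 on replicates 1 and 96.4 and 61.0 on replicates 2, and the 3 Adcy7 probe sets keep one order of arrays.

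To show the regulatory sequence of these genes, RefSeq promoter windows were searched for the cAMP response element, the site bound by CREB, which acts at the end of this pathway. The windows are the 250 bases before an annotated start (GRCm38.p6), and 13 windows covered 7 of the 9 members: Gnas, Gnai1, Gnai3, Adcy3, Adcy4, Adcy7 and Adcy9. The full palindrome TGACGTCA (both strands read alike) was in 0 of the 13 windows and in 1.55% of all 32841 windows. The short core TGACG, or CGTCA on the other strand, which the palindrome contains, was in 5 of the 13 windows and in 17.8% of all windows. These 5 windows belong to 3 genes, Gnas, Adcy7 and Adcy9, and 2 of the Gnas windows overlap and share 1 match. Shown here, with the short core in capitals, are 1 window of each of these 3 genes and that of Adcy4, whose probe set had the widest range between arrays among the member probe sets that passed the filter, which holds no such letters. They lie at chr2:174329756-174330005 on the plus strand (Gnas), chr8:88282742-88282991 on the plus strand (Adcy7), chr16:4420499-4420748 on the minus strand (Adcy9) and chr14:55784073-55784322 on the minus strand (Adcy4).
Gnas: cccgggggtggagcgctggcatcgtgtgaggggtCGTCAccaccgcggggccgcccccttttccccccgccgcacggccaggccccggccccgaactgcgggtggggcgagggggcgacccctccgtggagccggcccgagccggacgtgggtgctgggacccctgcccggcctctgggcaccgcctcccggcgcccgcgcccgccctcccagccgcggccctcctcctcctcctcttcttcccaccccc
Adcy7: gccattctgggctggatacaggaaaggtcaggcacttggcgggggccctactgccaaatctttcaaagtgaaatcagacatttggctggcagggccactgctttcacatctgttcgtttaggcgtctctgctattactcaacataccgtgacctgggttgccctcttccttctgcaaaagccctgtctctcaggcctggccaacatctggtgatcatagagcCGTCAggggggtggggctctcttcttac
Adcy9: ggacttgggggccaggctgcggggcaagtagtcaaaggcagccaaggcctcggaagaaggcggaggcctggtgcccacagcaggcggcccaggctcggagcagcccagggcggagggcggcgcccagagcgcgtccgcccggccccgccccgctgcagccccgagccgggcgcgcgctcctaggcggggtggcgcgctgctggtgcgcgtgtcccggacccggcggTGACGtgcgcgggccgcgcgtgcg
Adcy4: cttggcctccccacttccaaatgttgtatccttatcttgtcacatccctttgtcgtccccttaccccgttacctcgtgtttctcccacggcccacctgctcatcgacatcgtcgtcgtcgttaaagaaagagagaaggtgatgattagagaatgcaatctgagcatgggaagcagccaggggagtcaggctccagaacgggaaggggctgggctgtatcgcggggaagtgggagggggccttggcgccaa
The match begins 216 bases before the start in Gnas, 28 in Adcy7 and 24 in Adcy9. The windows also differ in base composition: GC content was 80% in Gnas, 78.8% in Adcy9, 56% in Adcy4 and 54% in Adcy7. A match of letters is a description of the window, and binding was not measured here.

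Gnas encodes G alpha s, which carries the signal of the calcitonin receptor to the cyclases, and its locus is known for imprinted transcripts with other first exons that share the downstream exons. Its probe set 1450186_s_at (the suffix s marks probes that can match several transcripts) read 4299 and 5156 in control and 4789 and 4496 in cKO. The cKO arrays lay inside the range of the controls. The log2 difference was -0.021 with a 95% interval from -0.35 to 0.31, the narrowest among the member probe sets. Its sign turned, to 0.033 after quantile normalization and 0.072 with arrays centred on their median. The median over all genes turned as well, to 0.017 and 0.050.

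The other Gnas probe sets did not repeat this flat profile. Probe set 1443375_at read 645 and 633 in control and 659 and 1010 in cKO, so both cKO arrays were above both controls, cKO replicate 1 by only 0.031 on the log2 scale over control replicate 1. The groups overlapped after quantile normalization and with arrays centred. Probe set 1453413_at read 618 and 672 in control and 514 and 929 in cKO. Both were brightest on cKO replicate 2, with mean log2 differences of 0.35 and 0.10. The sources used here do not say which transcripts of the locus each probe set matches. The remaining 2 Gnas probe sets were below the filter, 1421740_at with 5.35 to 13.7 and 1427789_s_at with 1.15 to 35.9 over the 4 arrays.

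Gnai2 encodes an inhibitory subunit that is found in most tissues. Its 2 probe sets gave nearly the same profile. Probe set 1435652_a_at (the suffix a marks transcripts of 1 gene) read 1688 and 2052 in control and 1797 and 1631 in cKO, with a log2 difference of -0.12 and a 95% interval from -0.60 to 0.36. Probe set 1419449_a_at read 1693 and 2091 in control and 1864 and 1442 in cKO, with a log2 difference of -0.20. On both, control replicate 2 was the brightest array and cKO replicate 2 the dimmest, so the groups overlapped, and both differences kept their sign after quantile normalization and with arrays centred.

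Gnai3, a closely related inhibitory subunit, had 2 probe sets with opposite signs. Probe set 1428645_at read 1119 and 998 in control and 1251 and 1040 in cKO, a log2 difference of 0.11 with overlapping arrays. Probe set 1437225_x_at, whose suffix x marks probes that may also match other sequences, read 426 and 436 in control and 324 and 293 in cKO. Both of its cKO arrays lay below both controls, a 1.40-fold difference (log2 difference -0.48, 95% interval -1.19 to 0.23). It kept the lower level without overlap after quantile normalization (-0.42) and with arrays centred (-0.39). With arrays centred the first probe set did not overlap either, in the other direction (0.20). The direction for Gnai3 therefore depends on the probe set.

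Gnai1, the inhibitory subunit best known from brain, also had probe sets of both signs. Probe set 1454959_s_at read 283 and 253 in control and 296 and 220 in cKO (log2 difference -0.069, turning to 0.024 with arrays centred). Probe set 1427510_at read 222 and 205 in control and 220 and 124 in cKO, so that 1 of the 2 cKO arrays was at the control level and the other was the lowest of the 4. Probe set 1434440_at read 130 and 120 in control and 158 and 121 in cKO, a log2 difference of 0.14. Its groups overlapped by a small margin, and did not overlap after quantile normalization (0.21) or with arrays centred (0.24). The intervals of all 3 included 0.

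Adcy6 encodes a cyclase that is inhibited by G alpha i and by calcium. Its probe set read 283 and 225 in control and 296 and 266 in cKO, a log2 difference of 0.15 with a 95% interval from -0.62 to 0.92. It was the only cyclase member with a higher mean log2 value in cKO on its brightest probe set. The groups overlapped in the deposited values, and both cKO arrays lay above both controls after quantile normalization (0.20) and with arrays centred (0.24).

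Adcy3, a cyclase best known from olfactory neurons and primary cilia, had 4 probe sets, of which 2 passed the filter. Probe set 1436929_x_at read 95.6 and 174 in control and 113 and 107 in cKO, so the cKO values lay between the controls. Probe set 1436928_s_at read 117 and 151 in control and 99.5 and 90.1 in cKO. Both of its cKO arrays were below both controls, by 1.40-fold on average (log2 difference -0.48, 95% interval -1.36 to 0.40), also after quantile normalization (-0.40) and with arrays centred (-0.39). Probe set 1421960_at was just under the filter and flat, with 60.5 to 68.8 on the 4 arrays, and 1421959_s_at was dim, with 43.6 and 46.9 in control and 33.9 and 11.5 in cKO.

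Adcy9, a widely expressed cyclase, had 4 probe sets that passed the filter, and all 4 had a lower mean log2 value in cKO, also after quantile normalization and with arrays centred. The log2 differences ran from -0.41 to -0.14. Probe set 1449620_s_at read 211 and 221 in control and 231 and 164 in cKO. Probe set 1434454_at read 202 and 230 in control and 207 and 128 in cKO, with a 95% interval from -1.30 to 0.48. In both, cKO replicate 1 was above at least 1 control array and cKO replicate 2 was the lowest array. Probe sets 1419811_at (124 and 177 in control, 151 and 115 in cKO) and 1418586_at (142 and 92.0 in control, 98.5 and 84.5 in cKO) overlapped as well. After quantile normalization both cKO arrays of 1434454_at lay below both controls (log2 difference -0.34), while with arrays centred its groups overlapped. The probe sets of 1 gene share its transcripts and are not separate evidence.

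Adcy4 encodes a cyclase of the class that beta-gamma dimers stimulate. Its probe set read 329 and 96.4 in control and 384 and 61.0 in cKO. Replicate 1 was 3.39-fold above replicate 2 in control and 6.20-fold in cKO, and this spread within the groups gives the log2 difference of -0.21 a 95% interval from -2.31 to 1.88. The endothelial marker list moved alike: 15 of its 16 genes were at least 2-fold brighter on replicate 1 in both groups, and Cdh5, the endothelial cadherin gene, read 1044 and 79.7 in control and 1060 and 110 in cKO. Pericyte and smooth muscle markers summed to 15834 and 8401 in control and to 17848 and 6729 in cKO. Schwann cell markers (2 of the 5 on the array passed the filter) summed to 4231 and 3152 in control and to 4279 and 2857 in cKO. The part of any of these lists in the Adcy4 signal was not tested. Over 4 arrays, the genes with the profile most like that of Adcy4, of 10125 compared, were Ankrd33b (Euclidean distance 0.29 between centred log2 values), Rai14 (0.34) and Filip1 (0.35).

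Adcy7, also stimulated by beta-gamma dimers and known from blood cells and other tissues, had the member probe set with the largest mean difference among those that passed the filter. Probe set 1456307_s_at read 1053 and 1901 in control and 1547 and 722 in cKO. Probe set 1450065_at read 489 and 916 in control and 520 and 274 in cKO. Probe set 1420970_at read 235 and 504 in control and 368 and 155 in cKO. All 3 ranked the arrays alike, with control replicate 2 highest, cKO replicate 1 next, then control replicate 1, and cKO replicate 2 lowest, so the groups overlapped on each.

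The log2 differences of the 3 Adcy7 probe sets were -0.42, -0.82 and -0.53, and all kept their sign after quantile normalization and with arrays centred. The smallest unadjusted limma p of any member was that of 1450065_at, 0.101 (95% interval -1.85 to 0.21). Between the arrays numbered 2 the differences were -1.39, -1.74 and -1.70, while cKO replicate 1 was above control replicate 1 by 0.55, 0.088 and 0.65. The labels do not say that a number was shared, so these are differences between single arrays. For 1456307_s_at, leaving out control replicate 2 gave 0.0057 and leaving out cKO replicate 2 gave 0.13. The summed leukocyte markers ranked the arrays in the same order, and 13 of the 18 were brightest on control replicate 2. Only 7 of the 18 passed the filter, and these did not all keep the order of the sum. Lyz1, a large part of the sum, read 1004 and 1065 in control and 1062 and 38.1 in cKO. Cd68 was lowest on control replicate 2 (334 and 195 in control, 402 and 282 in cKO). Of the satellite cell markers, 11 of 12 were brightest on control replicate 2 as well. The part of either in the Adcy7 signal was not tested. The nearest profiles among 10125 genes were those of Ptprz1 (distance 0.031 over 4 arrays), Mgam (0.059) and Eefsec (0.10).

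**Figure D2:**
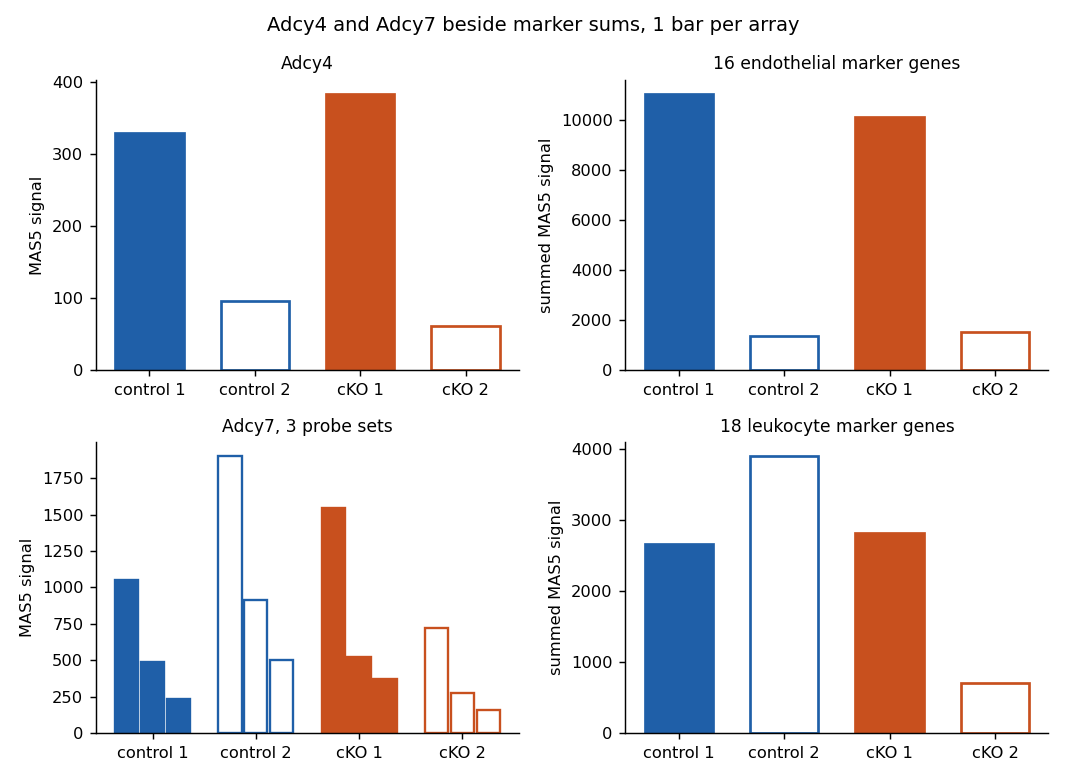
MAS5 signal per array (1 bar per array, axes from 0) of Adcy4 and of the 3 Adcy7 probe sets (1456307_s_at, 1450065_at and 1420970_at from left to right), beside the summed signals of 16 endothelial and 18 leukocyte marker genes; filled bars are replicate 1 and open bars replicate 2, with control in blue and cKO in orange. Adcy4 and the endothelial sum are both high on replicates 1, and Adcy7 and the leukocyte sum are both highest on control replicate 2 and lowest on cKO replicate 2.

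Across the members, the differences between arrays of the same number went different ways. The labels do not say that a number was shared, so each is a difference between 2 single arrays and not a separate reading of the genotype. Between the arrays numbered 1, 5 of the 21 probe sets were lower in cKO and the median log2 difference was 0.090, where 44.8% of all tested probe sets were lower and their median was 0.046. Between the arrays numbered 2, 16 of the 21 were lower with a median of -0.54, where 64.9% of all were lower with a median of -0.16. After quantile normalization the members' counts were 7 and 15 and their medians 0.020 and -0.35, with 49.5% and 49.9% of all probe sets lower. In 8 of the 21 probe sets the sign was the same for both numbers. On 14 of the 21, cKO replicate 2 was the dimmest array, as it was for 38.3% of all tested probe sets. Several probe sets read the same gene, so these counts describe the probe sets and not independent genes.

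**Figure D3:**
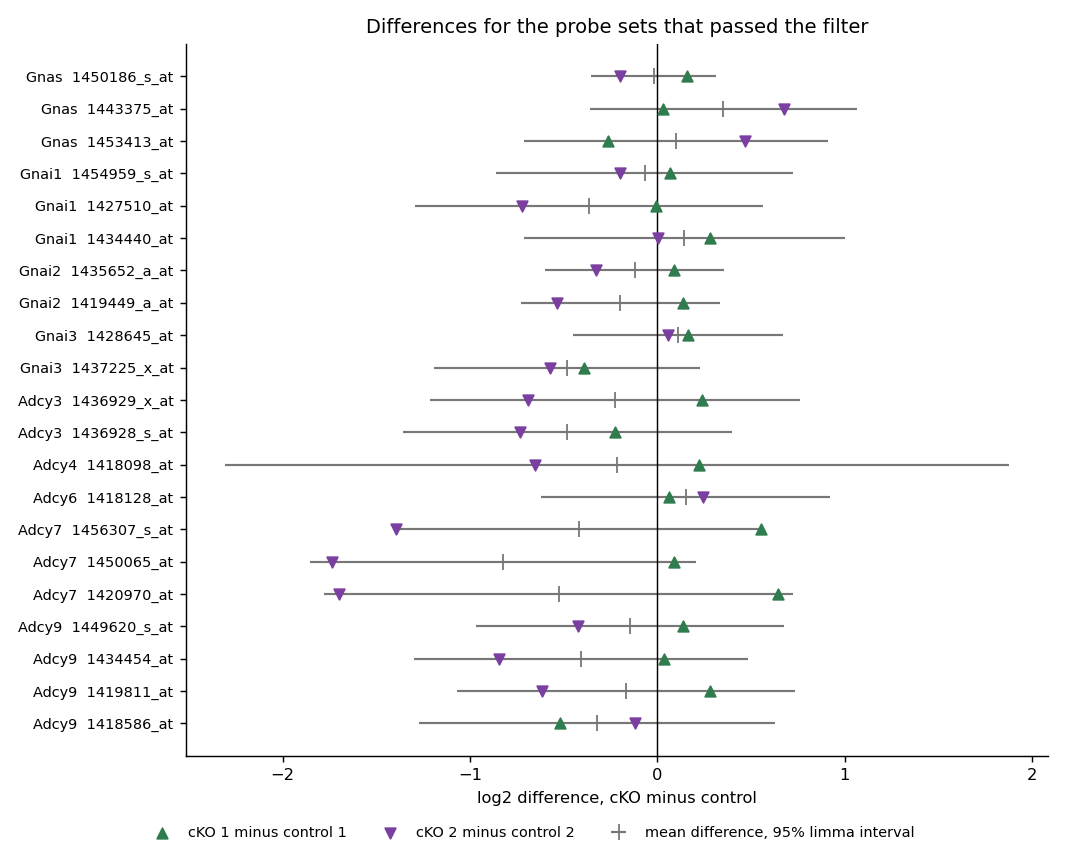
Log2 difference, cKO minus control, for the 21 member probe sets that passed the filter: the mean difference with its 95% limma interval (grey), and the differences between the arrays numbered 1 (upward triangles) and numbered 2 (downward triangles). Every interval includes 0, and the downward triangles of the 3 Adcy7 probe sets lie at -1.39 or lower while their upward triangles lie above 0. The labels do not say that a number was shared between the groups.

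The other parts of the pathway were read from lists of genes, again by the brightest probe set that passed the filter and with higher and lower counted on the log2 scale, and no gene of any list had an adjusted limma p under 0.05. Of the receptors that couple to Gs, 5 of 33 listed genes passed the filter and all 5 had a lower mean log2 value in cKO, also under both other scalings, with a median log2 difference of -0.47. Calcr, the targeted gene, is one of them, so this count and median include a gene that the design was made to lower. The others had log2 differences of -0.24 (Ptger4), -0.18 (Calcrl), -0.71 (Adcyap1r1) and -0.47 (Gpr3). The groups overlapped for Calcrl and Adcyap1r1. Calcr was the only gene of any list with an unadjusted limma p under 0.05. Of 35 receptors that couple to Gi, 4 passed the filter and all 4 had a lower mean log2 value without further scaling (median -0.25), while 1 of them was higher after quantile normalization and with arrays centred. Gabbr1, a subunit of the GABA-B receptor, had the smallest p among them (log2 difference -0.19). S1pr1 (463 and 114 in control, 559 and 61.4 in cKO) and Sstr4 (201 and 49.1 in control, 126 and 32.8 in cKO) overlapped. Both were higher on replicate 1 in both groups. Over all genes 57.3% were lower without further scaling, and their median was 0.017 after quantile normalization and 0.050 with arrays centred. Lists of this size with every gene on one side remain a description.

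Lists of subunits and regulators lay near the median of all genes. Of 12 other G alpha genes 6 passed the filter, 2 higher and 4 lower (median -0.068, turning to 0.025 with arrays centred). The smallest p was that of Gnat1, the rod transducin subunit (log2 difference -0.48). Gnat1 read 127 and 47.0 in control and 73.7 and 41.0 in cKO, so its groups overlapped. Of 17 beta and gamma subunit genes 10 passed, 4 higher and 6 lower (median -0.023, and 0.031 and 0.069 under the other scalings). Among these Gng7, a gamma subunit, had the smallest p (log2 difference -0.80). It read 67.6 and 109 in control and 82.3 and 28.8 in cKO, so its groups overlapped and cKO replicate 2 was the lowest array. Of 9 genes of G alpha chaperones, other regulators and cyclase-associated proteins 7 passed, 3 higher and 4 lower (median -0.014, and 0.036 and 0.078 under the other scalings). Gpsm2, which binds GDP-loaded G alpha i, had the smallest p and read 93.4 and 93.0 in control cells, 157 and 128 in cKO cells (log2 difference 0.60).

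Of the 5 other adenylyl cyclase genes, 2 passed the filter, Adcy2 and Adcy5, with log2 differences of 0.0016 and 0.24, and both stayed above 0 under the other scalings. Adcy5, the close relative of Adcy6, had the smaller p. Of 11 effectors that bind cAMP or act with the proteins that do, 10 passed, 3 higher and 7 lower, with a median of -0.13 (-0.078 and -0.040 under the other scalings). Prkar2b, a regulatory subunit of protein kinase A, read 112 and 169 in control and 106 and 78.4 in cKO (log2 difference -0.59). Rapgef3, counted as lower, read 534 and 40.8 in control and 690 and 20.2 in cKO, so it was higher on replicate 1 in both groups.

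**Figure D4:**
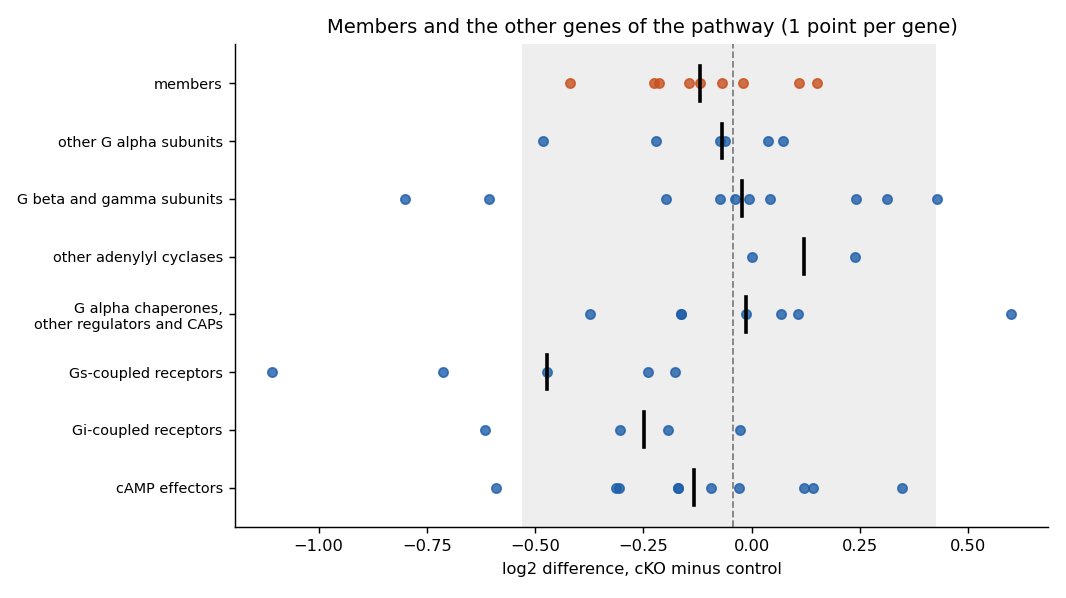
Log2 difference, cKO minus control, of the 9 members (orange) and of the genes of 7 pathway lists (blue), 1 point per gene that passed the filter, with the median of each list as a black bar. The dashed line is the median of all 10134 genes (-0.043) and the grey band runs from their 5th to their 95th percentile (-0.53 to 0.42); all 9 members lie inside it.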

How the data were processed

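The authors deposited 1 signal intensity per probe set for each array, computed with MAS5 on a linear scale per the submitters' processing notes. The MAS5 version and scaling target are not given in the sources used here. Gene symbols came from the platform's annotation (34945 probe sets with 1 symbol, 932 with several and 9160 with none), and 0 symbols changed through Entrez identifiers in the RefSeq table. Values were analysed as log2(value + 1), and fold changes are on that scale. After removal of 64 AFFX controls, 22505 probe sets had a mean log2 value at or above the median of all. Groups were compared with limma 3.58.1 in R 4.3.3 (lmFit, eBayes with an intensity trend, no block, 2 residual and 5.33 prior degrees of freedom), 2-sided, with Benjamini-Hochberg adjustment over all probe sets kept at 0.05. The steps were tested on simulated arrays. The limma p-values set a group difference against the spread between samples of a group, moderated by the spread of the other probe sets. Levels of different probe sets were not compared. The named genes were all 9 members, Calcr, the genes of each pathway list with an unadjusted p under 0.05 or else the smallest p, and the 3 nearest profiles of members spanning at least 1 log2 unit. Others were named after their values were seen. Among the markers these were Pax7, Myf5, Cdh5, Ptprc, Cd3e, Itgam, Adgre1, Cd52, Lyz1 and Cd68. Among the pathway genes they were Ptger4, Calcrl, Adcyap1r1, Gpr3, S1pr1, Sstr4, Rapgef3 and Adcy2. Members and lists were chosen with earlier results of these data known. The same values were recomputed with quantile normalization, arrays centred on their median, a pseudocount of 32, other filters, no trend, a replicate block, only unsuffixed probe sets, the mean over probe sets and leaving out each array, with the lone array of a group taken to vary as the other group does.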

Additional observations from a re-analysis of the deposited data

How the results depend on the processing

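No member probe set was called by limma under any of the 12 alternatives tried for that count. Over all probe sets the count rose from 0 to 5 with the replicate number as a block, none of them a member, and ran from 0 to 5 when single arrays were left out. Arrays of the same number deviated together from their group means (r = 0.43 across 22505 probe sets, which are not independent), but the labels do not say that a number was shared, and the block changed no call for a member. Member genes without overlap of the groups, 0 of 9 in the deposited values, were 1 after quantile normalization (Adcy6), 2 with arrays centred (Gnai3, Adcy6), 1 of 7 with only unsuffixed probe sets (Gnas) and 2 by the mean over probe sets (Gnai3, Adcy9). They were 2 to 6 when an array was left out, where 1 array against 2 overlaps less readily. The share of all genes without overlap is not given for these alternatives, so the counts describe the members and cannot be set against a background. The sign of the log2 difference changed under at least 1 alternative for 9 of 9 members. For Gnas it was 0.033 after quantile normalization, 0.072 with arrays centred, 0.35 with only unsuffixed probe sets and 0.14 by the mean over probe sets. For Gnai1 it was 0.024 with arrays centred, and for Gnai3 -0.19 by the mean over probe sets. Leaving out single arrays gave ranges of -0.15 to 0.11 for Gnas, -0.28 to 0.14 for Gnai1, -0.26 to 0.020 for Gnai2, -0.023 to 0.24 for Gnai3, -0.65 to 0.20 for Adcy3, -1.53 to 1.10 for Adcy4, -0.015 to 0.32 for Adcy6, -0.97 to 0.13 for Adcy7 and -0.39 to 0.10 for Adcy9. The values above 0 for Adcy4 came without control replicate 1 (0.67) or cKO replicate 2 (1.10). The cause was not tested. Calcr kept its direction under all 13 alternatives (log2 difference -1.24 to -0.97). The filter at the 75th percentile gave no value for Adcy3, Adcy4 and Adcy9, and Gnai2 and Adcy3 had none without suffixed probe sets. The number of arrays limits the precision of every difference.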
